A study of Bos taurus with 48 samples.

Results

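Heifers raised on the low-protein high-energy diet (LPHE) were biopsied at both sampling times of the study, and the 12 samples of these 6 animals, of 48 in the series, are described here. The members were every sample whose labels gave low dietary protein and high dietary energy, of which 6 were taken at 12 months of age, during experimental feeding, and 6 in month 7 of gestation, at 20 to 24 months of age. Each heifer carries its number in the sample label, so both of its samples form a pair. All were Norwegian Red heifers, 3 of the genetic group bred for high milk yield (HMY, heifers 3, 12 and 20) and 3 of the group bred for low clinical mastitis (LCM, heifers 5, 16 and 24). The tissue was subcutaneous fat, and polyA RNA was sequenced. Heifers received their LPHE ration from 3 months of age until breeding near 400 kg of body weight succeeded, and from then on a low-energy feed was offered freely to heifers of every diet. The other diets were low in protein and energy (LPLE), high in both (HPHE) or high in protein and low in energy (HPLE). Their 18 heifers were sampled in the same way and enter only where LPHE is set against them. Gestation, age, the change of feed and the sampling occasion differed together between both times and cannot be told apart.

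Subcutaneous fat stores energy as triacylglycerol. In cattle the fatty acids made in adipose tissue are built mainly from acetate. ACSS2 activates acetate to acetyl-CoA, ACACA and FASN turn this into palmitate, and ELOVL6 and SCD lengthen and desaturate the product. The reducing power comes from the pentose phosphate pathway and cytosolic dehydrogenases. In late gestation nutrients are directed to the growing conceptus, and towards calving the balance in adipose tissue shifts from storing fat to releasing it.

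Counts on genes ranged from 15355145 to 49699041 at 12 months and from 28230549 to 48003078 in gestation, and a difference in depth between times was not called (exact sign-flip permutation test over 6 heifers, two-sided, p = 0.281, smallest possible p 0.0312). The TMM scaling factor was higher in gestation in all 6 heifers (mean 0.943 ± 0.0308 against 1.06 ± 0.0408, SD, n = 6, exact sign-flip permutation p = 0.0312). The 10 genes with most counts held 14.7% ± 0.745 of them at 12 months and 10.7% ± 1.67 in gestation (SD, n = 6). Levels are TMM-normalized CPM, counts scaled to the size of the library, except where stated. The 12-month sample of heifer 12 stood apart from the other 5 for several named genes, at the low end each time, and the number of genes called and those list counts that changed without this heifer are given below. Of the 12 adipocyte markers listed, 4 had an identifier here (CIDEC, LEP, THRSP, AGPAT2) and all 4 were present in every sample. Their summed level, in CPM without TMM, fell from 7416 to 10565 at 12 months to 2005 to 6021 in gestation (exact sign-flip permutation p = 0.0312). THRSP and AGPAT2, themselves genes of lipid synthesis, had log2 fold changes of -2.40 and -2.51. CIDEC changed less (-0.53), and LEP was not called (-0.041). Summed levels of 4 of 12 fibroblast markers were 13031 to 39736 CPM and 16365 to 50561 CPM, higher in 4 of 6 heifers (exact sign-flip permutation p = 0.312), and of these PI16 and DCN rose, with log2 fold changes of 1.55 and 0.68, while COL1A1 and COL3A1 were not called. The 7 skeletal muscle markers of 20 with an identifier summed to at most 4.07 CPM in any sample, and MYL1 was at 0 in all 12. Among smooth muscle markers (4 of 10, 66.6 to 374 CPM against 157 to 924 CPM) CSPG4 was called with a log2 fold change of 0.61, and among lymphatic markers (3 of 6, 16.4 to 67.3 CPM against 61.5 to 171 CPM) LYVE1 with 1.36. The Schwann cell markers SOX10 and CDH19 were not called, whereas S100B, which adipocytes also express, fell. In bulk tissue fewer cells of a type and less RNA per cell cannot be told apart, and the part of cell composition in the results was not tested. Endothelial, macrophage, lymphocyte, neutrophil and red cell markers were not analysed here.

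Between 12 months and gestation a large part of the adipose transcriptome of LPHE heifers changed. Of 13124 genes tested, 4550 (34.7%) were differentially expressed (DEG) at an FDR under 0.05, and 875 of these by more than 2-fold. Up-regulated in gestation were 2208 genes (16.8%) and down-regulated 2342 (17.8%). Without heifer 12 there were 4881 DEG, and leaving out each heifer in turn gave 3353 to 4881. With library size in place of TMM, 24.3% of 5871 DEG were down-regulated and not 51.5%, and the log2 fold changes were shifted by a median of 0.17 from those with TMM. Among the 4550 DEG with TMM the direction was the same in all 6 heifers for 1407 of those that rose and 1720 of those that fell. In 633 genes (4.82%) every 12-month sample lay above every gestation sample, and in 423 (3.22%) every gestation sample lay above every 12-month sample.

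Symbols were known for 990 of the genes tested, nearly all of them genes that the study listed because they differed between LPHE and LPLE heifers at 12 months. The 12-month LPHE samples therefore took part in choosing which genes have a name, and 541 named genes fell and 221 rose, while of the genes without a name 1801 fell and 1987 rose. Counts of named genes below are thus no independent evidence of a direction in LPHE heifers, and HPHE heifers, on which few of the names were chosen, are set beside each group. The strongest rises by p were in genes without a symbol here: ENSBTAG00000003515 went from a median of 4.72 to 59.2 CPM (log2FC 3.30) and ENSBTAG00000018519 from 1.46 to 7.46 CPM (log2FC 2.94). Levels of these genes did not overlap between both times. In the other diets ENSBTAG00000003515 had log2 fold changes of 2.81 in HPHE and 2.76 in LPLE heifers.

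The 12 named genes with the largest decreases had different functions. BDH1 (ENSBTAG00000000448), which interconverts both main ketone bodies in mitochondria, was at 38.0 to 106 CPM (median 95.2) at 12 months and 0.727 to 21.4 CPM (median 4.56) in gestation, a 20.1-fold fall (log2FC -4.33 ± 0.62, FDR 2.06e-05). C19orf80 (ENSBTAG00000009570), also known as ANGPTL8, encodes a secreted regulator of lipoprotein lipase. It went from 188 to 519.7 CPM (median 321) to 1.56 to 107 CPM (median 23.4) (log2FC -4.16 ± 0.80, FDR 0.000402), and the lowest 12-month level was above the highest of gestation, as it was for BDH1. Relative to their median, the levels of both genes spread more widely in gestation than at 12 months, while the range in CPM was wider at 12 months. GSTT3, a glutathione S-transferase, went from 51.5 to 255 CPM (median 171) to 3.41 to 29.5 CPM (median 15.1) (log2FC -3.52 ± 0.51, FDR 2.35e-05) and the membrane protein gene MPV17L from 7.14 to 21.8 CPM (median 11.5) to 0.384 to 2.88 CPM (median 0.996) (log2FC -3.39 ± 0.40, FDR 3.90e-06), neither with overlap. CKB, the brain-type creatine kinase, which was also the only member of the thermogenic list with an identifier, fell from 577 to 1561 CPM (median 1288) to 86.5 to 195 CPM (median 165) (log2FC -2.90 ± 0.32, FDR 2.48e-06), with the 12-month sample of heifer 12 the lowest of its group. SOST, which encodes the Wnt inhibitor sclerostin, went from 10.05 to 43.5 CPM (median 23.7) to 0.466 to 6.00 CPM (median 2.78) (log2FC -3.33 ± 0.64, FDR 0.000393) and LY6E, which encodes a membrane-anchored surface protein, from 30.7 to 58.9 CPM (median 44.8) to 2.65 to 9.54 CPM (median 7.56) (log2FC -2.76 ± 0.34, FDR 4.88e-06). Both were separated between the times.

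The other large decreases came with overlap of single samples. TDH, the mitochondrial threonine dehydrogenase, was at 1.88 to 81.1 CPM (median 42.2) at 12 months and 0.765 to 6.23 CPM (median 4.08) in gestation (log2FC -3.38 ± 0.54, FDR 5.84e-05), and heifer 12 held the low value of 12 months. PLIN5, which coats lipid droplets and ties them to mitochondria, went from 1.31 to 24.8 CPM (median 7.60) to 0.253 to 2.22 CPM (median 0.728) (log2FC -3.18 ± 0.61, FDR 0.000377). The epithelial keratin KRT19 went from 8.44 to 77.3 CPM (median 32.7) to 1.91 to 8.79 CPM (median 2.79) (log2FC -3.18 ± 0.58, FDR 0.000216), while the other epithelial marker with an identifier, DSP, was not called (FDR 0.295). LOC518623 had 3.44 to 13.7 CPM (median 11.05) and 0.608 to 4.49 CPM (median 0.951) (log2FC -2.89 ± 0.42, FDR 2.40e-05). Each of these 4 genes was lower in gestation in all 6 heifers, which was a condition for being listed here. The plot of the largest changes sets these genes beside their changes in HPHE and LPLE heifers. In HPLE heifers, not plotted, MPV17L, LY6E, GSTT3 and CKB were down-regulated too (log2FC -2.51, -2.43, -1.99 and -1.55). The others of the 12 largest falls were not called there, among them BDH1 with -2.12 (FDR 0.056).

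**Figure D1:**
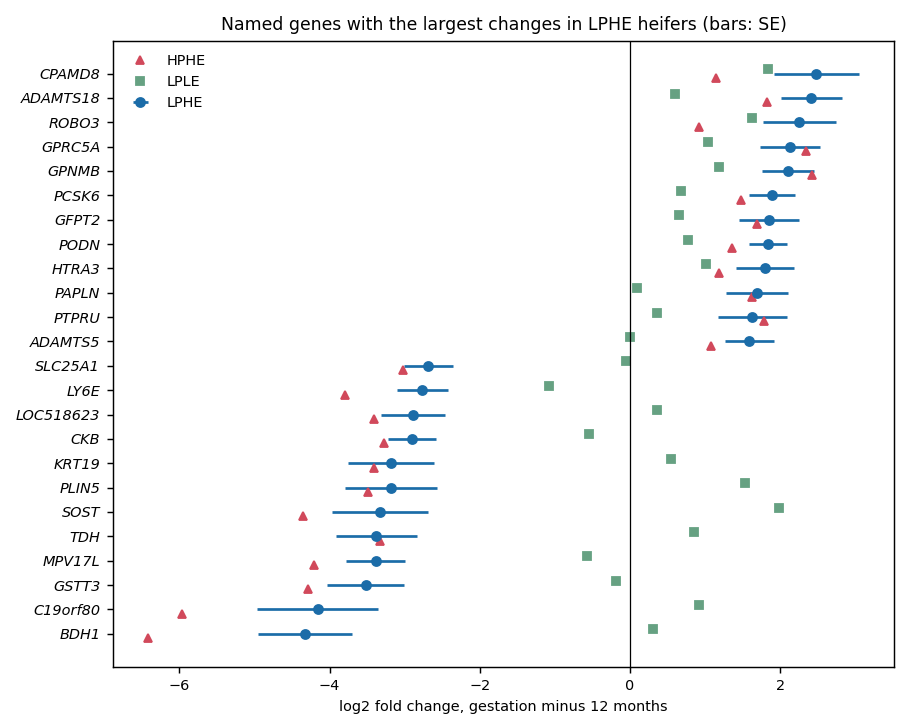
Log2 fold change, gestation minus 12 months, of the 12 named genes with the largest rise and the 12 with the largest fall in LPHE heifers (circles, bars are the SE, n = 6 pairs), with HPHE (triangles) and LPLE (squares) heifers beside them. Falls reach -4.33 in BDH1 with -6.41 in HPHE and 0.31 in LPLE heifers, and rises reach 2.48 in CPAMD8.

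Genes of fatty acid synthesis fell nearly throughout. Of 14 members of this list with an identifier, 13 were down-regulated and none up-regulated, with a median log2FC of -1.91. Down-regulated were 17.8% of all genes and 541 of the 990 genes with a symbol. In 7 members every 12-month sample lay above every gestation sample, against 4.82% of all genes. In HPHE heifers 13 were down-regulated as well, with a median of -2.73, and none was called in LPLE (median 0.19) or HPLE heifers (median -0.61). FASN (ENSBTAG00000015980), the fatty acid synthase, stood at 10128 to 12911 CPM (median 11759) at 12 months and 679 to 6661 CPM (median 2365) in gestation, a 5.39-fold fall without overlap (log2FC -2.43 ± 0.38, FDR 5.15e-05). The 6 heifers were close together at 12 months and far apart in gestation, with heifer 20 highest at 6661 CPM and heifer 24 lowest at 679 CPM. SCD, the delta-9 desaturase, went from 6180.2 to 21183 CPM (median 13996) to 919.8 to 7111 CPM (median 2173) (log2FC -2.56 ± 0.47, FDR 0.000234) and ACACA, the acetyl-CoA carboxylase, from 1382 to 3499 CPM (median 2300.1) to 317 to 1593 CPM (median 522) (log2FC -1.94 ± 0.37, FDR 0.000340). Both overlapped through a low 12-month value of heifer 12 and a high gestation value of heifer 20, though each fell in every heifer. ELOVL6, which elongates palmitate, fell without overlap from 1009.9 to 3147 CPM (median 1767) to 233 to 681 CPM (median 291) (log2FC -2.36 ± 0.39, FDR 8.29e-05).

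Suppliers of cytosolic acetyl-CoA moved in the same direction. SLC25A1, which exports citrate from mitochondria, was the member of the list with the smallest p and went from 585 to 1078 CPM (median 781) to 56.8 to 227 CPM (median 128) (log2FC -2.68 ± 0.32, FDR 4.44e-06). ACSS2, the acetate-activating enzyme, fell from 2506 to 4578 CPM (median 3847) to 369 to 2045 CPM (median 570.3) (log2FC -2.39 ± 0.36, FDR 2.91e-05) and ACLY, which splits citrate, from 244 to 1082 CPM (median 422) to 104 to 178 CPM (median 123) (log2FC -1.84 ± 0.30, FDR 8.59e-05). Neither overlapped. Lipogenic regulators were lower as well, with log2 fold changes of -2.40 for THRSP, -1.89 for MID1IP1 and -0.93 for MLXIPL, the carbohydrate response factor. FADS2, the delta-6 desaturase, was the member not called, with medians of 13.8 and 7.66 CPM (FDR 0.142).

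**Figure D2:**
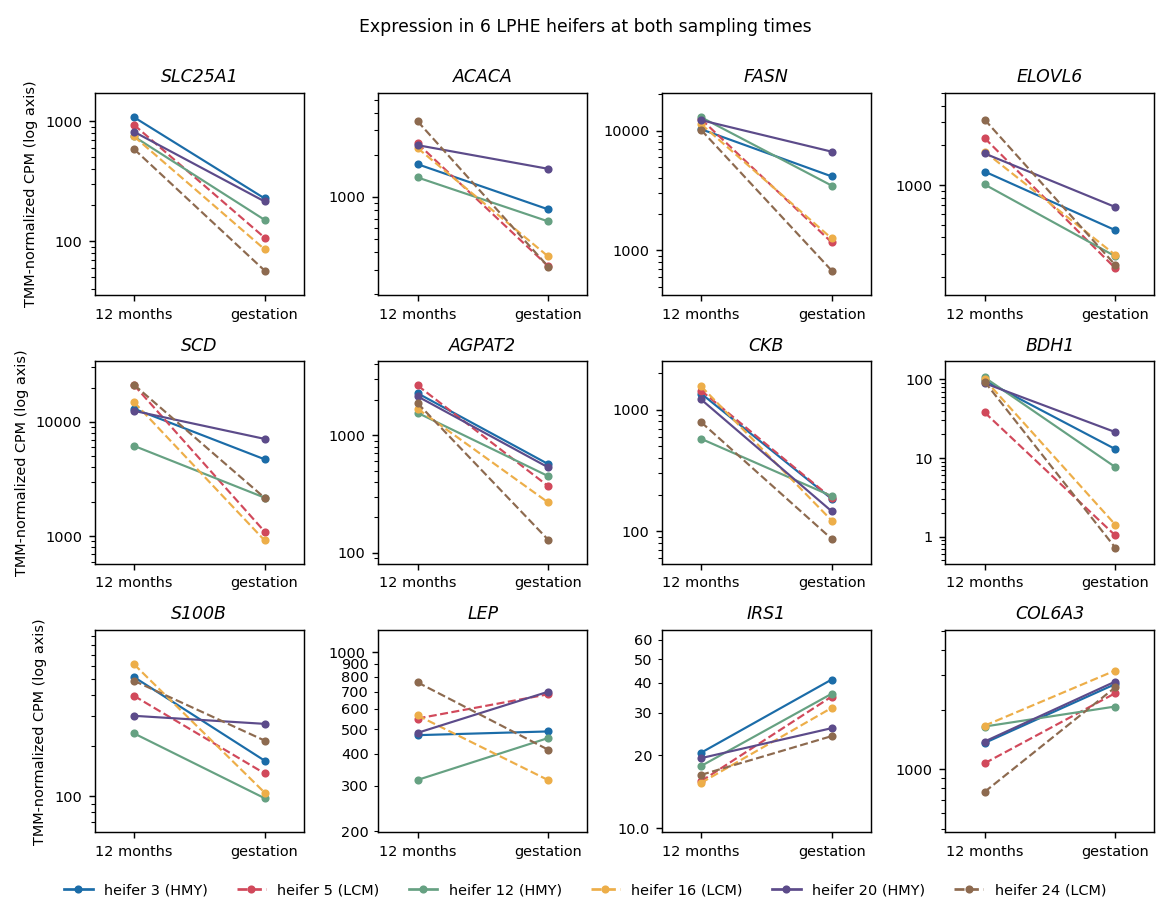
TMM-normalized CPM (log axes) of 12 genes in the 6 LPHE heifers at 12 months and in month 7 of gestation, 1 line per heifer, solid for HMY and dashed for LCM. FASN lies between 10128 and 12911 CPM at 12 months and between 679 and 6661 CPM in gestation, LEP has no common direction, and IRS1 and COL6A3 rise in every heifer.

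All 4 identified genes of triacylglycerol synthesis and the lipid droplet were down-regulated, against 17.8% of all genes and 541 of 990 with a symbol. The median log2FC was -2.03 (HPHE -2.58 with 4 down-regulated, LPLE 0.18 with none, HPLE -0.36 with none). AGPAT2, which adds the second fatty acid to the glycerol backbone, fell from 1552 to 2655 CPM (median 2011) to 129 to 569 CPM (median 409) (log2FC -2.51 ± 0.30, FDR 4.45e-06) and DGAT2, which adds the last, from 5368 to 7829.8 CPM (median 6222) to 1037 to 4812 CPM (median 2086) (log2FC -1.55 ± 0.29, FDR 0.000309). In neither did the times overlap. The droplet protein gene CIDEC, also an adipocyte marker, overlapped and changed less, from a median of 2034 to 1572 CPM (log2FC -0.53 ± 0.18, FDR 0.0244). Fatty acid uptake and activation did not move as a group: SLC27A3, an acyl-CoA synthetase of the transporter family, rose from 5.24 to 38.4 CPM (median 11.5) to 12.2 to 45.3 CPM (median 27.8) (log2FC 1.03 ± 0.28, FDR 0.00645), and ACSL4, a long-chain acyl-CoA synthetase, fell from 48.3 to 184 CPM (median 96.2) to 30.3 to 74.4 CPM (median 53.2) (log2FC -0.998 ± 0.32, FDR 0.0189). ACSL4 was not called without heifer 5 (FDR 0.101) or heifer 24 (FDR 0.0730). SLC27A6 and VLDLR had log2 fold changes of 0.024 and 0.29 and were not called.

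Each of the 6 identified genes of cholesterol synthesis was down-regulated without overlap. Of all genes 17.8% were down-regulated and 4.82% were separated in this direction, and 541 of 990 with a symbol fell. The median log2FC was -1.63 (HPHE -1.55 with all 6 down-regulated, LPLE 0.17 with none called, HPLE -0.21 with none called). IDI1, the isopentenyl diphosphate isomerase, went from 160.3 to 325 CPM (median 293) to 21.8 to 93.4 CPM (median 35.8) (log2FC -2.68 ± 0.37, FDR 1.44e-05). LSS, which closes the sterol rings, went from a median of 229 to 46.1 CPM (log2FC -1.95). MVD, NSDHL and SC5D followed with -1.62, -1.26 and -0.90. In HPHE heifers IDI1 again had the largest change of the 6 (-2.66).

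Genes of the mitochondrial respiratory chain fell together. All 54 identifiers of the electron transport chain and ATP synthase were down-regulated in gestation, with a median log2FC of -1.13 and a range from -2.05 to -0.56, and 50 did not overlap between times. Of all genes 17.8% were down-regulated and 4.82% were separated in this direction, while 541 of the 990 genes with a symbol fell. The same 54 were all down-regulated in HPHE heifers (median -1.11), while none was called in LPLE heifers (median -0.10) and 2 fell in HPLE heifers (median -0.41). UQCRFS1, the iron-sulphur subunit of complex III, went from 120.2 to 259 CPM (median 241) to 54.4 to 94.6 CPM (median 64.2) (log2FC -1.66 ± 0.18, FDR 2.08e-06). Heifer 12 held the lowest 12-month value and even so stayed above every gestation sample. The complex II subunit SDHA fell from 675 to 994 CPM (median 838) to 265 to 451 CPM (median 325) (log2FC -1.26 ± 0.15, FDR 4.44e-06) and the catalytic subunit of ATP synthase, ATP5B, from 710.5 to 1179 CPM (median 1061) to 444 to 687 CPM (median 499) (log2FC -0.97 ± 0.13, FDR 8.08e-06). Both cytochrome c identifiers (CYCS) fell, with log2 fold changes of -2.05 and -1.67. Near-identical copies can share reads, so this division between the copies is uncertain, as it is for COX7C, PGAM1 and SOD1, which have a pair of identifiers each too. NDUFS5 had the smallest change of the list (-0.56).

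Transcripts encoded by the mitochondrial genome itself, chosen after their values were seen, decreased too. The cytochrome oxidase subunits COX1 and COII and the complex I subunit ND5 together held 5.34% ± 0.556 of the counts on genes at 12 months and 1.93% ± 0.196 in gestation (SD, n = 6), lower in all 6 heifers (exact sign-flip permutation p = 0.0312, the smallest possible). COX1 went from 38166 to 53144 CPM (median 44332) to 12518 to 16896 CPM (median 13953) (log2FC -1.65 ± 0.16, FDR 1.31e-06). COII and ND5 had log2 fold changes of -1.66 and -1.53. The same 3 genes changed by -1.59, -1.55 and -1.44 in HPHE heifers and by -0.34, -0.31 and -0.47 in LPLE heifers. In HPLE heifers they were called down-regulated, by -0.88, -0.83 and -0.78.

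In the tricarboxylic acid cycle and pyruvate dehydrogenase list, 13 of 14 genes were down-regulated. Of all genes 17.8% were down-regulated, and of the 990 with a symbol 541. The median log2FC was -1.11 (HPHE -1.13 with 13, LPLE -0.0026 with none, HPLE -0.40 with none). MDH2, the mitochondrial malate dehydrogenase, went from 220.1 to 449 CPM (median 358) to 85.1 to 173 CPM (median 116) (log2FC -1.50 ± 0.16, FDR 2.30e-06). Citrate synthase CS had medians of 220.0 and 103 CPM (log2FC -1.15) and FH, the fumarase, of 181 and 82.1 CPM (log2FC -1.02), each without overlap. The anaplerotic enzyme PC, which makes oxaloacetate from pyruvate, was the gene not called, with 194 to 566 CPM (median 302) and 173 to 356 CPM (median 223) (FDR 0.137).

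Breakdown of branched-chain amino acids, another mitochondrial pathway, counted 13 of 14 genes down-regulated, against 17.8% of all genes and 541 of 990 with symbols. The median log2FC was -0.98 (HPHE -1.08 with 13, LPLE -0.026 with none, HPLE -0.36 with 3). BCKDHB, a subunit of the dehydrogenase that commits these amino acids to oxidation, fell from 21.96 to 38.9 CPM (median 32.1) to 8.72 to 16.2 CPM (median 9.84) without overlap (log2FC -1.52 ± 0.18, FDR 4.02e-06). MUT, the methylmalonyl-CoA mutase through which propionate also enters the cycle, changed by -1.22.

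Fatty acid beta-oxidation was split. Of its 10 genes, 8 were down-regulated and 2 up-regulated (median log2FC -1.14), against 17.8% and 16.8% of all genes. Among the 990 genes with a symbol 541 fell and 221 rose. The counts of this list were the same in HPHE heifers (median -1.27), and none was called in LPLE or HPLE heifers (medians -0.021 and -0.48). ECHS1, the enoyl-CoA hydratase, fell from 661 to 1151 CPM (median 914) to 260.3 to 457 CPM (median 301) (log2FC -1.49 ± 0.19, FDR 7.72e-06), and DECR1, ETFA and ETFDH had log2 fold changes of -1.60, -1.46 and -1.31. The genes that rose both act at control points: CPT1A admits long-chain fatty acids to mitochondria and PDK4 inhibits pyruvate dehydrogenase. CPT1A rose from 33.8 to 47.7 CPM (median 41.6) to 45.2 to 112 CPM (median 77.8), with overlap (log2FC 0.82 ± 0.20, FDR 0.00263), and PDK4 from 71.0 to 232 CPM (median 111) to 95.0 to 730.0 CPM (median 174) (log2FC 0.95 ± 0.33, FDR 0.0274). Only 1 of both was called without heifer 5, 16 or 24.

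Carbohydrate genes were lower in gestation in 12 of 13 identifiers of glycolysis and the pentose phosphate pathway. Of all genes 17.8% were down-regulated, and of the 990 with a symbol 541. Without heifer 12 all 13 identifiers of the list were lower. The median log2FC was -0.90 (HPHE -0.96 with 13, LPLE 0.23 with none, HPLE -0.12 with none). Of the pentose phosphate enzymes, TKT went from 1414 to 2209 CPM (median 1758) to 307 to 1009 CPM (median 477) (log2FC -1.78 ± 0.24, FDR 1.11e-05) and TALDO1 from 443 to 1028 CPM (median 706) to 218 to 357 CPM (median 278) (log2FC -1.31 ± 0.15, FDR 3.90e-06), both without overlap. In glycolysis itself GPI, which interconverts hexose phosphates, fell from 354 to 699 CPM (median 606) to 217 to 347 CPM (median 274) (log2FC -1.09 ± 0.14, FDR 9.41e-06), while ALDOA, PGK1, TPI1 and ENO1 had log2 fold changes of -0.83, -0.83, -0.78 and -0.49. HK2, the hexokinase of insulin-responsive tissues, was not called (medians 51.8 and 26.0 CPM, FDR 0.114).

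Antioxidant and detoxifying genes fell alongside. Of 19 identifiers of the glutathione and peroxide defence list, 16 were down-regulated, against 17.8% of all genes and 541 of 990 with a symbol. The median log2FC was -0.97 (HPHE -1.01 with 16, HPLE -0.16 with 1, LPLE 0.11 with none down-regulated and CAT up-regulated). PRDX1, a peroxiredoxin, had the smallest p and went from 199 to 343 CPM (median 280.4) to 97.0 to 164 CPM (median 131) without overlap (log2FC -1.10 ± 0.11, FDR 1.56e-06). NQO1, a quinone reductase that oxidants induce, went from 51.2 to 141 CPM (median 115) to 25.0 to 56.2 CPM (median 37.9) (log2FC -1.50 ± 0.16, FDR 1.84e-06). Its overlap came from the 12-month sample of heifer 12. The other glutathione S-transferases GSTT1 and GSTM1 had log2 fold changes of -1.92 and -0.97, microsomal MGST1 one of -1.47, and glutathione synthetase GSS one of -1.84. Catalase CAT, GPX7 and PRDX6 were not called, with log2 fold changes of 0.17, -0.34 and -0.28.

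**Figure D3:**
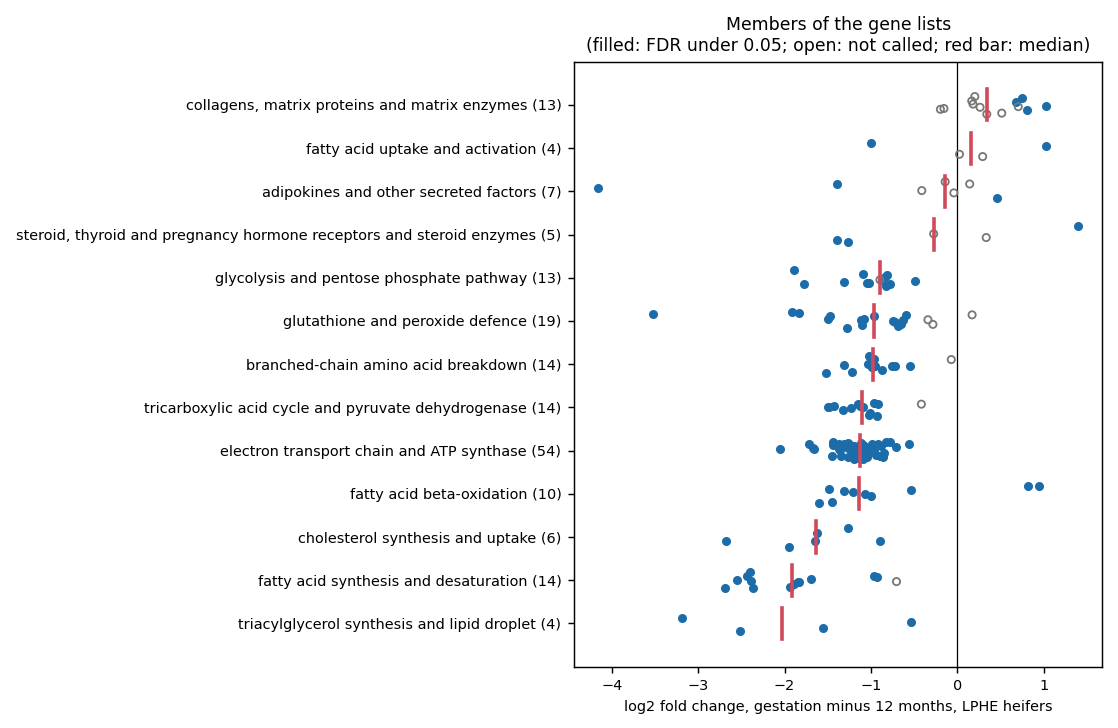
Log2 fold change, gestation minus 12 months in LPHE heifers, of each member (points, filled at an FDR under 0.05) of the gene lists with at least 4 identifiers, with the median as a bar and the number of identifiers in brackets. All 54 points of the electron transport chain lie between -2.05 and -0.56, and matrix genes have a median of 0.34.

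Of the 12 largest increases among named genes, 10 were separated between times in all samples, against 3.22% of all genes in this direction. These 12 were picked for a large rise shared by all 6 heifers, so their separation is no independent evidence. CPAMD8, of the alpha-2-macroglobulin family of protease inhibitors, went from 3.80 to 7.04 CPM (median 5.41) to 16.9 to 62.3 CPM (median 30.1) (log2FC 2.48 ± 0.57, FDR 0.00177), and GPNMB, a transmembrane glycoprotein, from 45.0 to 179 CPM (median 65.98) to 266 to 419 CPM (median 319), a 4.31-fold rise (log2FC 2.11 ± 0.34, FDR 8.18e-05). PODN, which encodes the small leucine-rich proteoglycan podocan, rose from 80.9 to 195 CPM (median 92.5) to 278 to 556 CPM (median 393) (log2FC 1.84 ± 0.26, FDR 1.44e-05). Several were proteases or their relatives: ADAMTS18 (0.787 to 3.84 CPM (median 1.84) against 4.50 to 21.9 CPM (median 9.33), log2FC 2.41), PCSK6 (medians 7.21 and 23.2 CPM, log2FC 1.89), HTRA3 (26.7 and 67.4 CPM, log2FC 1.80), PAPLN (7.00 and 22.5 CPM, log2FC 1.69) and ADAMTS5 (6.66 and 19.9 CPM, log2FC 1.59). ADAMTS5 overlapped between times. The guidance receptor ROBO3 went from a median of 2.46 to 12.3 CPM (log2FC 2.25), the receptor GPRC5A from 5.11 to 23.5 CPM (log2FC 2.13) and GFPT2, which starts the hexosamine pathway, from 53.2 to 167.9 CPM (log2FC 1.84). PTPRU, a receptor-type tyrosine phosphatase, overlapped (log2FC 1.63) and was not called when the fit held the 12 LPHE samples alone (FDR 0.0566).

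Most genes of collagens and matrix proteins were not called. Of 13 members, 4 (COL6A3, LAMB1, COL14A1 and DCN) were up-regulated and none down-regulated. Up-regulated were 16.8% of all genes and 221 of the 990 genes with a symbol, so the count is near the share among genes with a symbol. The median log2FC was 0.34 (HPHE 0.60 with 4 up-regulated and 1 down-regulated, LPLE -0.40 with none called, HPLE -0.040 with 1 up-regulated). The count of 4 depended on the heifers: it was 8 without heifer 12 and 2 without heifer 5, without heifer 24 or with the LPHE samples alone. COL6A3, a chain of the microfibrillar collagen around adipocytes, rose from 768 to 1659 CPM (median 1368) to 2072 to 3147 CPM (median 2638) without overlap (log2FC 1.03 ± 0.23, FDR 0.00126). The proteoglycan gene DCN went from 1970.2 to 2941 CPM (median 2623) to 2522 to 6863 CPM (median 4036) (log2FC 0.68 ± 0.21, FDR 0.0126). The fibrillar collagens were not called. COL1A1 had 4474 to 19031 CPM (median 10571) at 12 months and 4694 to 20415 CPM (median 12439) in gestation (log2FC 0.20, FDR 0.724) and COL3A1 a log2FC of 0.34. The summed fibroblast markers, given above, were higher in 4 of 6 heifers, and their part in these rises was not tested.

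Adipokines and hormone-related genes had no common direction. LEP, which encodes leptin, was at 317 to 762 CPM (median 517) at 12 months and 316 to 700.0 CPM (median 476) in gestation, higher in 4 heifers and lower in 2 (log2FC -0.041 ± 0.36, FDR 0.941). In LPLE heifers LEP rose from a 12-month median of 197 CPM (log2FC 1.604, FDR 0.0366), and the difference between both diets was called (log2FC -1.65, FDR 0.0366). In gestation LPHE heifers had a median of 476 CPM and LPLE heifers one of 451 CPM. S100B, a calcium-binding protein that adipocytes and Schwann cells express, fell from 237 to 614 CPM (median 443) to 97.2 to 270.4 CPM (median 149.9), lower in all 6 heifers (log2FC -1.398 ± 0.25, FDR 0.000225). NNAT, the imprinted neuronatin gene, varied between heifers at both times (17.1 to 292 CPM (median 78.4) against 24.8 to 143 CPM (median 64.9)) and was not called (log2FC -0.41 ± 0.31, FDR 0.312). FSTL1, a follistatin-like secreted protein, went from 1068 to 1582 CPM (median 1285) to 1178 to 2412 CPM (median 1821) (log2FC 0.46 ± 0.18, FDR 0.0491), near the threshold and not called under several other settings. FGF1 and IGF2 had log2 fold changes of -0.14 and 0.14 and were not called.

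IRS1, the docking protein of the insulin receptor, rose in all 6 heifers without overlap, from 15.4 to 20.5 CPM (median 17.4) to 24.0 to 41.1 CPM (median 33.2), a 1.81-fold rise (log2FC 0.86 ± 0.13, FDR 4.23e-05). The binding protein gene IGFBP6, the other identified member of its list, rose from a median of 203 to 417 CPM (log2FC 0.79 ± 0.28, FDR 0.0322), and without heifer 5, 16 or 24 only 1 of both was called. In HPHE heifers both rose too, by 0.47 and 0.70. Among steroid genes HSD11B1, which regenerates active glucocorticoid, rose from 0.959 to 1.83 CPM (median 1.36) to 2.98 to 4.63 CPM (median 3.499) without overlap (log2FC 1.3996 ± 0.26, FDR 0.000290), a change at low level. SRD5A1, a steroid 5-alpha-reductase, fell from 21.1 to 48.8 CPM (median 38.4) to 13.1 to 18.5 CPM (median 14.3) (log2FC -1.27 ± 0.17, FDR 1.25e-05), as did the membrane oestrogen receptor GPER1 (log2FC -1.39). PRLR, the prolactin receptor, was at 0.440 to 2.54 CPM (median 1.43) and 0.144 to 5.69 CPM (median 2.07) and was not called (log2FC 0.33 ± 0.81, FDR 0.778). PGRMC2 was not called either (log2FC -0.27).

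Among the remaining short lists, the clock genes BHLHE41 and NFIL3 were down-regulated, BHLHE41 from 32.4 to 58.4 CPM (median 41.1) to 19.7 to 38.4 CPM (median 27.4) (log2FC -0.62 ± 0.18, FDR 0.00997), and DBP was not called. BHLHE41 lost its call without heifer 5 (FDR 0.0680). NFIL3 lost its call without heifer 3, 5 or 24 and with library size only. Both identified heat shock genes fell, HSPE1, a mitochondrial chaperonin, from 108 to 145 CPM (median 135) to 50.5 to 80.9 CPM (median 65.0) (log2FC -0.99 ± 0.15, FDR 2.85e-05) and CRYAB from 242 to 623 CPM (median 548) to 80.04 to 171 CPM (median 111) (log2FC -1.92 ± 0.34, FDR 0.000155). The interferon-stimulated genes MX2 and OAS1X ranged widely at 12 months (3.09 to 495 CPM (median 36.9) and 11.1 to 288 CPM (median 59.5)) and were not called, with log2 fold changes of -2.88 and -1.32, but both were called lower without heifer 12, without heifer 16 and without the heifer block. ADIPOQ, LPL, PPARG, PGR, IGF1, PNPLA2 and LIPE and the lists of lipolysis and cell cycle were not analysed here, because no identifier was paired with them.

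The change on the other high-energy diet resembled that in LPHE heifers. In HPHE heifers 4862 genes (37%) were called between both times, 2449 that rose (18.7%) and 2413 that fell (18.4%), and the log2 fold changes of both diets had a Pearson r of 0.875 across all 13124 genes, which are not independent replicates. Called in both diets in the same direction were 3498 genes, 76.9% of the LPHE and 71.9% of the HPHE list. A test of the difference between the diets called no gene (edgeR, lowest FDR 0.999), with 271 genes (2.06%) at an unadjusted p under 0.05, and the likelihood ratio test and DESeq2 called none either. These tests do not show that the diets acted alike, since the difference in FASN, for example, was 0.80 ± 0.50 (SE). Point estimates were larger in HPHE heifers for FASN (-2.43 in LPHE, -3.23 in HPHE), C19orf80 (-4.16 and -5.96) and BDH1 (-4.33 and -6.41). In gestation FASN was at 851 to 1618 CPM in HPHE heifers, a narrower range than in LPHE heifers.

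**Figure D4:**
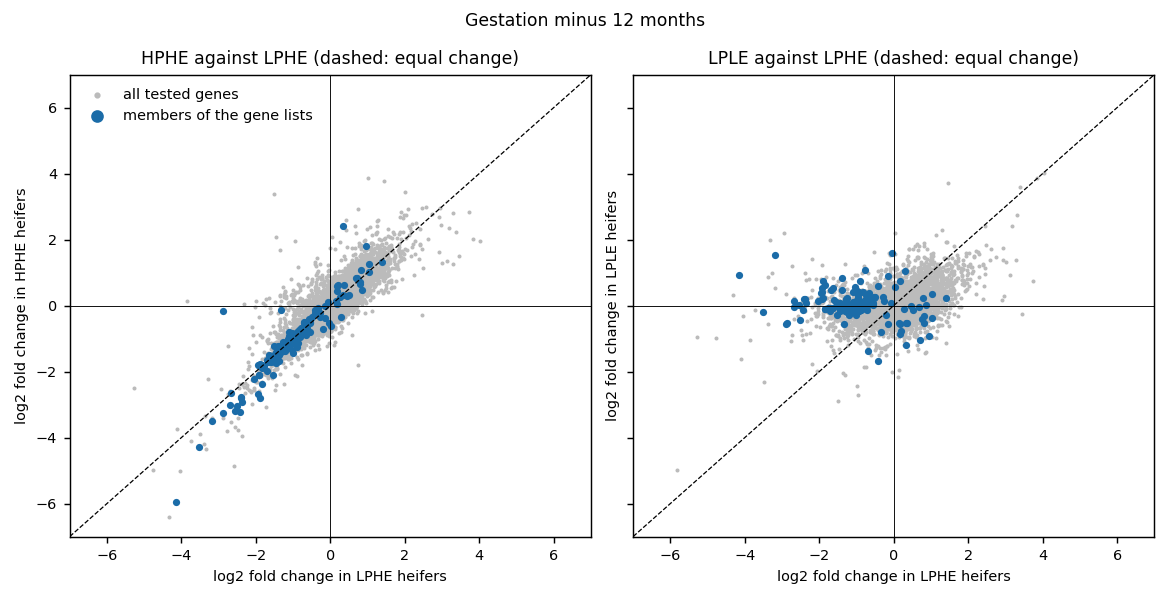
Log2 fold change, gestation minus 12 months, of all 13124 tested genes (grey) and of the gene list members (blue) in HPHE (left) and LPLE (right) heifers against LPHE heifers. Points follow the line of equal change for HPHE (Pearson r 0.875), whereas most list members lie near 0 in LPLE heifers.

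Fewer genes were called between the same times on the low-energy diets, 129 (0.983%) in LPLE heifers, of which 88 rose (0.671%) and 41 fell (0.312%), and 306 (2.33%) in HPLE heifers, of which 198 rose (1.51%) and 108 fell (0.823%). The change in LPHE heifers differed from that in LPLE heifers in 1846 genes (14.1%), 1241 with a more negative (9.46%) and 605 with a more positive value (4.61%) in LPHE heifers. The difference from HPLE heifers alone was not tested. Age in gestation and the interval between samples differed with dietary energy as well and cannot be told apart from it. The count against LPLE heifers was 2524 without heifer 12, 1175 without heifer 16, 1046 without heifer 24 and 993 without the heifer block. Among the 8 named genes with the smallest p were PRDX1 (difference of log2FC -1.21), GPI (-1.50), DEGS1 (-1.11), CNTN3 (1.88), NQO1 (-1.50), UCHL3 (-1.36) and MDH2 (-1.52), at an FDR of 0.000769 or 0.000846. DEGS1, a ceramide desaturase, fell in LPHE heifers from 173 to 337 CPM (median 206) to 89.7 to 134 CPM (median 118) and UCHL3, a ubiquitin hydrolase, from 25.7 to 73.7 CPM (median 47.0) to 12.6 to 25.2 CPM (median 17.9), while the neuronal adhesion gene CNTN3 rose from 0.703 to 3.31 CPM (median 1.67) to 2.08 to 8.56 CPM (median 4.01). In LPLE heifers PRDX1 had medians of 161 CPM at 12 months and 173 CPM in gestation, so the LPHE median was higher at 12 months (280.4 CPM) and lower in gestation (131 CPM). FASN showed the same crossing, with LPLE medians of 7209.7 and 7162 CPM. Since the names were chosen on the 12-month difference between these diets, the calls among named genes are no independent evidence.

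Against the mean change of the other diets, LPHE heifers differed in 3 genes (0.0229%), all more negative in LPHE: PRDX1 (difference -0.75), NQO1 (-1.04) and ENSBTAG00000025617, with a lowest FDR of 0.0320. Both named genes also fell in HPHE heifers, PRDX1 with a log2FC of -1.01 and NQO1 with -1.24, and their differences between LPHE and HPHE heifers, -0.093 ± 0.16 and -0.26 ± 0.22 (SE), were not called (edgeR, FDR 0.999 for each). The count ranged from 0 to 724 when single heifers were left out, 724 without heifer 12, 323 without heifer 20 and 0 without any one of heifers 3, 5, 16 and 24. It was 354 with the likelihood ratio test.

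**Figure D5:**
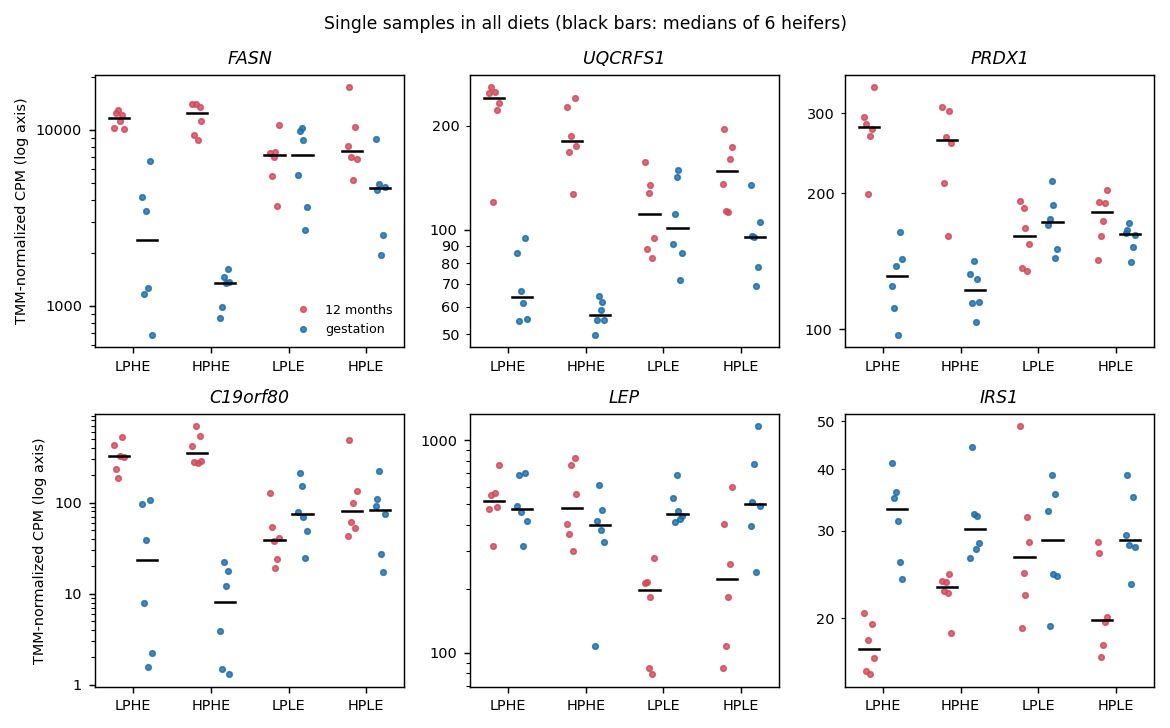
TMM-normalized CPM (log axes) of 6 genes in every sample of the 4 diets at 12 months (red) and in month 7 of gestation (blue), 6 heifers each, with medians as bars. PRDX1 falls from a median of 280 to 131 CPM in LPHE and from 262 to 122 CPM in HPHE heifers, and its LPLE medians are 161 and 173 CPM.

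Within LPHE heifers the point estimates were more negative in LCM than in HMY heifers for 13 of the 14 genes of fatty acid synthesis, but the difference was not called for any of them. FADS2 went the other way, with a log2FC of 0.12 in LCM and -1.53 in HMY heifers, and ACLY had nearly equal values of -1.93 and -1.77. These 14 genes are not independent of each other. Over all genes tested, those that rose and those that fell together, the median difference, HMY minus LCM, was 0.0073. The share more negative in LCM heifers was not counted. The direction was not particular to this list. Of the 12 named genes with the largest falls, all but KRT19 (difference -0.36) were more negative in LCM heifers too. Of the 12 with the largest rises, all but ADAMTS5 (0.50) were more positive in LCM heifers. The genes given next were chosen after their values were seen. In gestation FASN was at 1168, 1259 and 679 CPM in the LCM heifers 5, 16 and 24 and at 4143, 3472 and 6661 CPM in the HMY heifers 3, 12 and 20. These levels did not overlap, although both genetic groups lay between 10128 and 12911 CPM at 12 months. For FASN the log2FC was -3.49 in LCM and -1.37 in HMY heifers, for ACACA -2.99 and -0.91, for SCD -3.86 and -1.28 and for C19orf80 -6.51 and -2.24. For PRLR the values were 1.91 in LCM and -1.49 in HMY heifers. The test of the difference, with 3 heifers in each genetic group, called no gene at an FDR under 0.05 (edgeR's quasi-likelihood test, lowest FDR 0.102), while 2565 genes (19.5%) had an unadjusted p under 0.05. The likelihood ratio test called 624 genes and DESeq2 861, both chosen after these values were seen.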

How the data were processed

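Per the labels and the study's methods, the authors used cutadapt (1.3) for trimming and TopHat2 (2.0.12) for alignment to UMD3.1, and deposited HTSeq counts per Ensembl gene, raw and without normalization. The tool's 5 summary rows were left out (57.8% of its classified reads were on genes at 12 months and 56.9% in gestation, means of 6 LPHE samples). Genes with at least 2 CPM in 3 of the 12 LPHE samples were tested with edgeR (4.0.16, R 4.3.3), TMM and the quasi-likelihood test with Benjamini-Hochberg adjustment (FDR), in 1 model of all 48 samples with heifer as block and a time term per diet (20 residual degrees of freedom). By the labels, both samples of a number come from the same animal. The correlation of their deviations from the group means ranged from -0.059 to 0.609 over the 6 heifers. The 12-month samples of heifers 5, 12 and 20 correlated best with the gestation sample of another heifer. In all 30 pairs of samples of a group the counts differed by more than sampling noise (lowest chi-square per degree of freedom 56.9). A ± after a log2 fold change is the SE. Spread between animals, biopsies and libraries cannot be told apart.

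Symbols came from the study's tables (1006 identifiers). Named are the 12 largest rises and falls with a mean of at least 5 CPM and 1 direction in all heifers, the smallest p in each direction of each list, a fixed set including LEP, FASN and SCD, and 8 genes per difference test, of which 1 is not reported here. Members and lists were chosen with earlier results of these data known. Script checks ran on simulated data. Alternatives were no block, the 12 LPHE samples alone, the likelihood ratio test, DESeq2 (1.42.0), other scalings, filters and thresholds, and each heifer left out.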

Additional observations from a re-analysis of the deposited data

Results flagged for a closer look

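In 112 groups of 6 samples (56 named genes at both times) a single sample lay far from the other 5 in 5 groups, and chance flags about 1 in 20 groups, here 5.6. Of these, 4 were the 12-month sample of heifer 12, each time low: TDH at 1.88 CPM (next 30.7), LOC518623 at 3.44 CPM (next 9.75), UQCRFS1 at 120.2 CPM (next 222) and GPI at 354 CPM (next 576). The other was BDH1 in heifer 5 at 12 months, at 38.0 CPM with the next at 89.4 CPM.

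The change from 12 months to gestation differed between LPHE and LPLE heifers in 41 of the 56 named genes, by edgeR's test of the difference, and in 14.1% of all genes tested. Some of the 56 were named for their p in this test and others for a large change in LPHE heifers, and the symbols came from the 12-month difference between these diets, so the count is a description and no evidence. Values are the LPHE minus the LPLE log2 fold change, each of 6 heifers. Most negative were SOST with -5.32, C19orf80 with -5.08, PLIN5 with -4.71, BDH1 with -4.64, TDH with -4.23, KRT19 with -3.73, GSTT3 with -3.33, LOC518623 with -3.25 and MPV17L with -2.81. Lipid and sterol genes gave -2.81 for IDI1, -2.63 for SLC25A1, -2.57 for SCD, -2.46 for ACACA, -2.44 for ELOVL6, -2.31 for FASN, -2.09 for AGPAT2 and -1.11 for DEGS1. Energy and redox genes gave -2.35 for CKB, -1.58 for UQCRFS1, -1.57 for ECHS1, -1.52 for MDH2, -1.50 for GPI, -1.50 for NQO1, -1.24 for BCKDHB, -1.21 for TALDO1, -1.21 for PRDX1 and -0.91 for HSPE1. Others were S100B with -1.87, LY6E with -1.68, LEP with -1.65, SRD5A1 with -1.44, UCHL3 with -1.36 and BHLHE41 with -0.81. More positive in LPHE heifers were CNTN3 with 1.88, ADAMTS18 with 1.81, ADAMTS5 with 1.59, SLC27A3 with 1.398, CPT1A with 1.34, HSD11B1 with 1.17, PODN with 1.07 and IRS1 with 0.83.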

How the results depend on the processing

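No named gene called in the main fit or in the other fit reversed under the 15 other settings run for it. A change of sign in a gene called in neither was not counted. Of 838 values of named genes, 824 stayed on their side of the threshold and 14 lost their call, in PTPRU, ACSL4, FSTL1 and BHLHE41. For the gene lists, refitted without the block, with the LPHE samples alone, with library size only and without each heifer, 46 counts or medians moved. The median of fatty acid uptake and activation changed sign without heifer 12 (0.16 to -0.020), and that of adipokines did so with library size only and without heifer 16. Genes that rose numbered 1471 without the heifer block, 1456 with the 12 LPHE samples alone and 4443 with library size in place of TMM, which left 1428 that fell. No gene called in LPHE heifers was called in the opposite direction under any setting, and 75.5% of the calls were also made without the block and 71.2% with the LPHE samples alone. The difference from LPLE heifers gave 993 genes without the block and 2872 at an FDR under 0.1. The difference from the mean of the other diets gave 0 without the block or with library size only, 5 with RLE factors, 354 with the likelihood ratio test, 646 with DESeq2 and 502 at an FDR under 0.1. HMY against LCM heifers gave 624 with the likelihood ratio test and 861 with DESeq2. Leaving out 1 heifer gave 3353 to 4881 called genes, 1486 to 2346 that rose, 1867 to 2535 that fell, 1046 to 2524 that differed from LPLE heifers and 0 to 724 from the mean of the other diets. The cause of these moves was not tested, except that fewer samples enter the fits of 12 samples and without a heifer. Depth was at least 15355145 counts per LPHE sample. Spread between animals, biopsies and libraries cannot be told apart.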
